A study of Mus musculus with 2 samples.

Results

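The genes described here are 42 genes of DNA replication and the G1/S transition, taken by symbol from the 21983 genes of an RNA-seq table. The cells were primary chondrocytes of the mouse, which make and keep cartilage. All 42 symbols were found, and each had enough reads for a ratio, with 310 to 11976 counts summed over the libraries. They were wild type, and the labels name no strain, sex or age. The treated culture had recombinant Sparcl1 protein of the mouse added to 50 ng/ml for 3 days, and the control culture had phosphate-buffered saline (PBS). Both were grown in DMEM with fetal bovine serum and antibiotics. There was 1 library per group, so differences are without a replicate check, no test across libraries was made, and every interval is a 95% interval for the counting error of reads. A ratio is always that of the Sparcl1-treated library over the PBS library, on library-scaled counts (CPM) scaled by the trimmed mean of M-values (TMM).

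A cell copies its genome once per cycle. In G1, Cdc6 and Cdt1 load the ring-shaped Mcm helicase onto origins, a step called licensing. At the G1/S transition, cyclin E with its kinase and the E2F factors switch on the genes of S phase, Cdc45 and GINS join the helicase, and primase, polymerases, the Pcna clamp and its loader copy both strands. Chondrocytes divide in the growth plate and in culture, and many of these genes are classic E2F targets that are used as markers of cycling cells.

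E2F sites lie close to the start of such genes, and the promoters of 5 members are shown because they span the range of ratios found, from Cdc6 among the highest, through 3 subunits of the Mcm ring, to Mcm10, the lowest. The sequences are from RefSeq on GRCm38.p6, 250 bases before to 50 bases after the annotated start, written 5′ to 3′ on the strand of the gene, with the E2F letters in capitals.
Cdc6 (chr11:98907901-98908200, plus strand): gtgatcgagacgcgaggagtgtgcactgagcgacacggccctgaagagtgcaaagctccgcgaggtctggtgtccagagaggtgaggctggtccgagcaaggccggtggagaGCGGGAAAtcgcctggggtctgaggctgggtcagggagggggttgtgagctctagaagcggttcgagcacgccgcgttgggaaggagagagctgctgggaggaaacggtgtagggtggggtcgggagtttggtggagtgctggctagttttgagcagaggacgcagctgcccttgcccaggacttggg
Mcm3 (chr1:20820263-20820562, minus strand): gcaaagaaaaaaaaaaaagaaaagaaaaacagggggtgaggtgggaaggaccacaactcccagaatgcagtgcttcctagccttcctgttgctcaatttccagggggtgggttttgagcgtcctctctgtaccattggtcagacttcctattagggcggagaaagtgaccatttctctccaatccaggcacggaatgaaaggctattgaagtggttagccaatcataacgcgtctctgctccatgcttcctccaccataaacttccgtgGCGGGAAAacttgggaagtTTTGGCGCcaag
Mcm5 (chr8:75109259-75109558, plus strand): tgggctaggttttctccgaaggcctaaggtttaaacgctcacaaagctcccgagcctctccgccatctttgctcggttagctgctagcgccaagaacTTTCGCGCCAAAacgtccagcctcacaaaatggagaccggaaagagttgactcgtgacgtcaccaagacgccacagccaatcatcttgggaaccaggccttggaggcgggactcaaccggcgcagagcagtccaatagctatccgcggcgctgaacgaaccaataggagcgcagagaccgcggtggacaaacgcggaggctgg
Mcm6 (chr1:128359656-128359955, minus strand): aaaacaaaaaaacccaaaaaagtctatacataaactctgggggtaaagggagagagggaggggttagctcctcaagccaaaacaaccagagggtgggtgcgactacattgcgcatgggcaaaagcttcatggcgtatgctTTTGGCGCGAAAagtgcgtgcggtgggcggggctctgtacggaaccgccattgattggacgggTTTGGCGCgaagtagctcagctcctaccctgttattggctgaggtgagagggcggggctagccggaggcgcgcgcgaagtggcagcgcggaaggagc
Mcm10 (chr2:5012742-5013041, minus strand): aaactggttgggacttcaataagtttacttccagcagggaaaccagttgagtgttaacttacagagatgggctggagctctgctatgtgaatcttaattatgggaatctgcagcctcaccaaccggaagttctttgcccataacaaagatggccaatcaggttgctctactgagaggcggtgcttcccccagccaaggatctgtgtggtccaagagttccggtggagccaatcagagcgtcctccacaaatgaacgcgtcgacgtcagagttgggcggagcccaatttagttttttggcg
The letters searched were TTTCCCGC, TTTGGCGC, TTTCGCGC and TTTGCCGC on both strands. RefSeq promoters were matched for 34 of the 42 genes. Of these, 13 (38.2%) held at least 1 of the 4 words, against 704 of all 27025 genes with a promoter (2.60%) and 467 of the 10389 that also had at least 20 summed counts in these libraries (4.50%). In Mcm5 and in Mcm6 a pair of words overlaps on opposite strands, and Mcm6 holds a further word nearer its start. Mcm3 holds its words just after the start, and Mcm10 holds none in this window. The Cdc6 window begins downstream of the gene start in the GENCODE M21 annotation (98907801), so its word lies inside the gene as annotated there. Of 40 RefSeq promoters of the members, 30 had the first 20 bases after the start inside a GENCODE M21 transcript of the gene. The Mcm10 window ends in TTTGGCG, which lacks only the last letter of TTTGGCGC, and the next base lies outside it. The promoters of Rpa2 and Rfc5, which had the highest ratios, and of the ring subunit Mcm2 are not shown, and they hold none of the words. The CCAAT box, searched on both strands as CCAAT, stood in a promoter of 21 of the 34 genes (61.8%), against 42.7% of genes with a promoter and at least 20 summed counts. The cell cycle homology region, searched on both strands as TTTGAA and TTCGAA, stood in a promoter of 7 of the 34 (20.6%), against 16.5% of those genes and 21.7% of all genes with a promoter. A match of letters is a description of the sequence and not a measured binding site.

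Nearly all of the 42 genes had slightly higher levels in the Sparcl1-treated library. Ratios lay above 1 for 40 of the 42 genes (95.2%), where 49.6% of all 13317 genes with at least 20 summed counts had a ratio above 1. The median log2 ratio was 0.20, or 1.15-fold, against -0.0019 over all genes. The whole span ran from -0.16 for Mcm10 to 0.52 for Rpa2, and no member reached a 2-fold difference in either direction (background 0.954% higher and 0.946% lower). By a smaller size rule, at least 1.2-fold with a counting interval of the log2 ratio that excludes 0, 17 members (40.5%) were higher and none was lower, where 8.34% of all genes were higher and 7.66% lower by the same rule. Among the 9897 genes whose summed counts lie between the lowest and the highest summed count of a member, 7.81% were higher and 6.74% lower past 1.2-fold, and 49.9% had a ratio above 1. The counting interval lay wholly above 0 for 30 members (71.4%), against 20.1% of all genes, and wholly below 0 for none of them, against 21.6% of all genes. In the GENCODE M21 annotation of GRCm38 the 42 genes lie on 14 chromosomes, and the 3 highest ratios belong to genes on different ones, Rpa2 (chr4:132768332-132778752), Rfc5 (chr5:117378103-117389047) and Cdc6 (chr11:98907801-98923940). Summed over the 42 genes, the level was 2360 CPM in the Sparcl1-treated library and 2005 CPM in the PBS library.

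**Figure D1:**
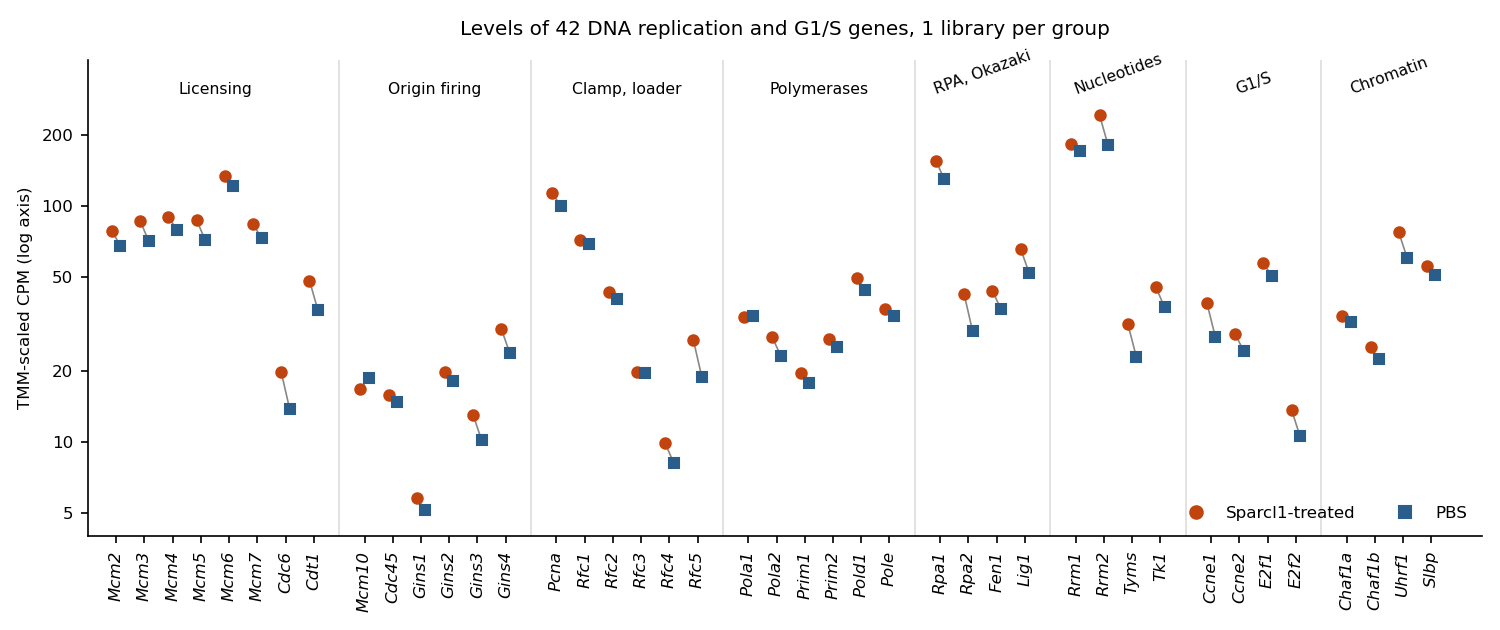
Level of each of the 42 genes in TMM-scaled CPM on a log axis, grouped by role, with 1 point per library, Sparcl1-treated as circles and PBS as squares. The circle stands above the square for 40 genes, and Mcm10 and Pola1 are the exceptions.

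These are bulk libraries, in which more cells of a type and more RNA per cell cannot be told apart. Chondrocyte markers were abundant in both libraries, with all 17 listed genes detected, a summed level of 12294 CPM after Sparcl1 and 14040 CPM after PBS, and Col2a1, the main cartilage collagen, at 7332 and 8629 CPM. Their median log2 ratio was -0.24, with none higher and 7 lower past 1.2-fold, where 8.34% of all genes were higher and 7.66% lower. Macrophage markers were also detected in full, all 16 of them, at a summed 2964 CPM after Sparcl1 and 2657 CPM after PBS, with a median log2 ratio of 0.036, 3 higher and 2 lower. Lyz2, which encodes lysozyme, alone had 1640 CPM after Sparcl1 and 1327 CPM after PBS. Adgre1, which encodes the macrophage protein F4/80, had 4357 counts after Sparcl1 and 4731 after PBS, which is 160 CPM in either library. Fibroblast markers summed to 19414 CPM after Sparcl1 and 23485 CPM after PBS (12 listed, median -0.18 over the 11 with at least 20 summed counts, 1 higher and 4 lower), and osteoblast markers to 294 and 421 CPM (10 listed, median -0.48 over 8, none higher and 5 lower). The most abundant fibroblast marker, Col1a1, had 6309 CPM after Sparcl1 and 8206 CPM after PBS. The most abundant osteoblast marker, Omd, had 97.1 CPM after Sparcl1 and 149.5 CPM after PBS (2642 and 4411 counts). Endothelial markers summed to 13.3 CPM after Sparcl1 and 13.1 CPM after PBS for 8 genes, most of it from Erg, at 9.96 and 9.22 CPM, while Cdh5 had 5 and 3 counts. The part of any of these cell types in the ratios of the replication genes was not tested. Library totals were 26871933 counts after Sparcl1 and 29858851 after PBS, and Sparcl1 itself had 208 and 289 counts.

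**Figure D2:**
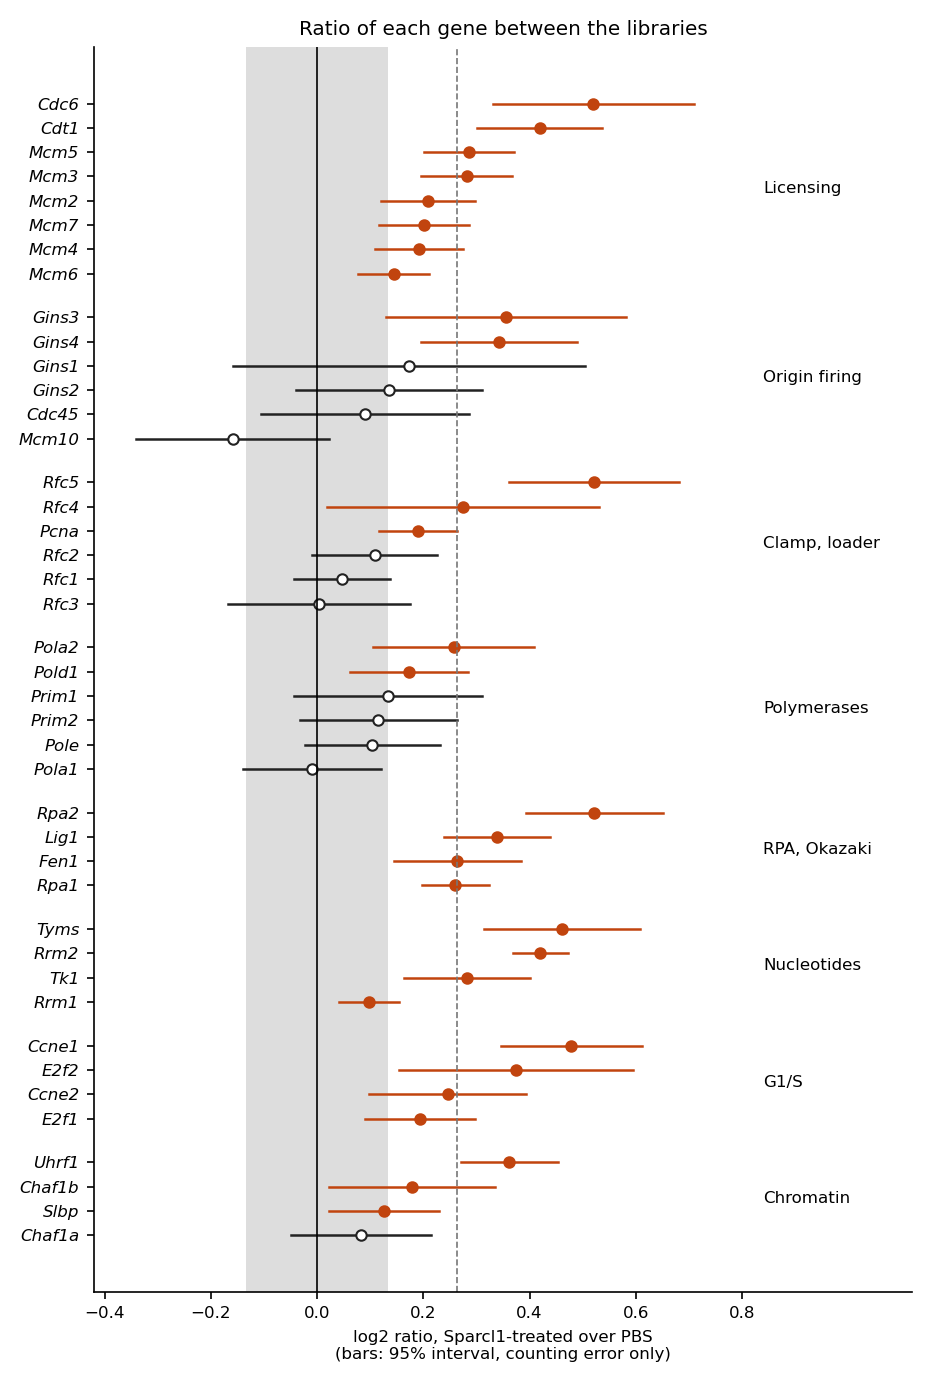
Log2 ratio of each gene, Sparcl1-treated over PBS, with its 95% counting interval, ordered by role. Filled points have an interval that excludes 0 (30 genes), the grey band is the interquartile range of the log2 ratios of all genes with at least 20 summed counts, and the dashed line marks 1.2-fold. Cdc6, Rfc5 and Rpa2 lie farthest to the right, all at 0.52.

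The licensing genes were higher throughout, with all 8 intervals above 0, against 20.1% of all genes, and a median log2 ratio of 0.25. The Mcm ring is made of 6 subunits, and their ratios lay in a narrow range. Mcm2 had 2138 counts in the Sparcl1-treated library and 2007 in the PBS library, a log2 ratio of 0.21 (0.12 to 0.30). Mcm3 had 2362 and 2107 counts (0.28, 0.20 to 0.37), and Mcm5 had 2388 and 2125 (0.29, 0.20 to 0.37). These were the 2 ring subunits past 1.2-fold. With smooth trends of the ratio on exon length and GC content removed, both fell short of it (0.24 for Mcm3 and 0.26 for Mcm5, limit 0.263). That leaves 2 of the 8 licensing genes past it in place of 4. Of all genes, 7.22% were higher past it with the trends removed and 8.34% with them left in. Mcm4 had 2465 counts after Sparcl1 and 2340 after PBS (0.19), Mcm7 had 2293 and 2163 (0.20), and Mcm6, the most abundant subunit, had 3673 and 3604 (0.14, 0.078 to 0.21). The ring therefore spanned 0.14 to 0.29 in log2 ratio. The loading factors stood further out. Cdc6, the ATPase that brings the ring to the origin recognition complex, had 538 counts after Sparcl1 and 407 after PBS, which is 19.8 against 13.8 CPM and a log2 ratio of 0.52 (0.33 to 0.71). Cdt1, its partner in loading, had 1319 and 1070 counts, or 48.5 against 36.3 CPM (0.42, 0.30 to 0.54). With the trends left in, neither interval reached down to the value of any ring subunit. The trend for Cdt1 was 0.089, and with the trends removed its interval took in the values of Mcm3 and Mcm5 given above. That of Cdc6 still lay above all ring subunits, and no interval of a loading factor against a ring subunit was made.

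Levels of the ring subunits can be compared only per length. Per kb of the longest annotated transcript, Mcm6 was highest in both libraries, at 31.0 CPM per kb after Sparcl1 and 28.1 after PBS, and Mcm2 lowest, at 22.5 and 19.5, so the highest subunit was 1.38 times the lowest after Sparcl1 and 1.44 times after PBS. Per kb of all annotated exons the same subunits were highest and lowest, but the factor was 2.56 after Sparcl1 and 2.68 after PBS. The subunits in between changed places with the length used.

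Of the 6 genes that turn the loaded ring into a moving helicase, 2 were higher past 1.2-fold, against 8.34% of all genes. The interval lay above 0 for 2 of them, against 20.1% of all genes. It included 0 for 4 of them, as it did for 7769 of all 13317 genes. Gins3 and Gins4, subunits of the 4-part GINS complex, were higher: Gins3 had 355 counts after Sparcl1 and 301 after PBS (log2 0.36, 0.13 to 0.58), and Gins4 had 822 and 703 (0.34, 0.20 to 0.49). With the trends removed Gins4 stood at 0.25, short of 1.2-fold, which leaves 1 of the 6 genes past it. In that setting 7.22% of all genes were higher past it. Gins2 had 541 counts in the Sparcl1-treated library and 534 in the PBS library (0.14, -0.039 to 0.31). Gins1, the member with the fewest counts, had 158 and 152 counts (0.17, -0.16 to 0.50), and at that depth a ratio the size of those of Gins3 and Gins4 lies within its interval. Cdc45, the third partner of the active helicase, had 430 counts after Sparcl1 and 438 after PBS (0.091, -0.10 to 0.29). Mcm10, a firing factor that is not part of the ring, had the lowest ratio of the 42, with 457 counts after Sparcl1 and 553 after PBS, or 16.8 against 18.7 CPM (-0.16, -0.34 to 0.023). Its interval does not reach the values of the 6 ring subunits, whose lowest was 0.14.

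The sliding clamp Pcna, which holds polymerases on DNA, had 3112 counts in the Sparcl1-treated library and 2959 in the PBS library (log2 0.19, 0.12 to 0.26). The subunits of its loader, replication factor C, had unlike ratios. Rfc5 stood among the highest of all members, with 741 counts after Sparcl1 and 560 after PBS, or 27.2 against 19.0 CPM (0.52, 0.36 to 0.68). Rfc3, another small subunit of the same complex, had 539 and 583 counts, which is 19.8 CPM in either library (0.0039, -0.17 to 0.18). The large subunit Rfc1 had 1957 counts after Sparcl1 and 2054 after PBS (0.047, -0.043 to 0.14), Rfc2 had 1183 and 1190 (0.11, -0.0087 to 0.23), and Rfc4 had 270 and 242 (0.28, 0.019 to 0.53). With the length and GC trends removed, the interval of Rfc4 (trend 0.021) included 0, and that of Rfc2 (trend -0.017) lay above 0. Rfc4 then fell short of 1.2-fold, which left 1 clamp or loader gene past it in place of 2. The count of Rfc5 over that of Rfc3 was 1.37 after Sparcl1 and 0.961 after PBS. That is a difference in log2 ratio of 0.52 with a counting interval of 0.28 to 0.75, and it is free of any scaling of the libraries. Rfc5 likewise differed from Rfc1 by 0.47 (0.29 to 0.66) and from Rfc2 by 0.41 (0.21 to 0.61), while the interval against Rfc4 included 0 (0.25, -0.058 to 0.55). The exons of Rfc5 share 10.7% of their bases with Wsb2 on the opposite strand, and those of Rfc4 12.7% with Eif4a2. Shared bases also make up 67.3% of the exons of Gins2 (with Gse1), 17.4% of those of Ccne2, 15.1% of those of Rfc2 and 12.6% of those of Mcm7. Whether strand was kept in the counting is not given in the sources used here. Rfc2, Rfc4 and Rfc5 share exon bases, while Rfc1 and Rfc3 share none. Of the clamp and loader genes, only Rfc1 and Rfc3 stayed when members with larger shared parts or named pseudogenes were left out. The median log2 ratio of this group went from 0.15 to 0.026, while that of all members stayed at 0.20. Its genes higher past 1.2-fold went from 2 to 0, where the share of all genes was 8.34% and then 8.31%. The part of shared exons in the ratio of each gene was not tested.

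Polymerases and primase had a median log2 ratio of 0.12, and no member was past 1.2-fold, where 8.34% of all genes were higher. The catalytic subunit of polymerase alpha, Pola1, had 924 counts after Sparcl1 and 1009 after PBS (log2 -0.0098, -0.14 to 0.12), whereas its accessory subunit Pola2 had 757 and 687 (0.26, 0.11 to 0.41). The difference between these subunits was 0.27 (0.067 to 0.47), although exon length and GC content differ between the genes. With trends on both removed, Pola1 stood at 0.12 and Pola2, then past 1.2-fold, at 0.33, and the median of the 6 genes was 0.17. The primase subunits Prim1, which makes the RNA primer, and Prim2 had 534 and 748 counts after Sparcl1, against 528 and 749 after PBS, and their log2 ratios of 0.13 and 0.12 had intervals that included 0. Pold1, the catalytic subunit of the main lagging-strand polymerase, had 1352 counts after Sparcl1 and 1301 after PBS (0.17, 0.062 to 0.28), and Pole, that of the leading-strand polymerase, had 999 and 1008 (0.10, -0.023 to 0.23). The trend for Pold1 was 0.074, so with the trends removed its interval included 0. The intervals of Pole and Prim2, with trends of -0.074 and -0.072, then lay above 0. The interval of Pole against Pold1 included 0 (-0.068, -0.24 to 0.10).

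The proteins that coat single-stranded DNA and finish Okazaki fragments, the short pieces of the lagging strand, all had intervals above 0. Among all genes 20.1% had such an interval. Rpa2 had the highest log2 ratio of the 42 genes, by a margin over Rfc5 and Cdc6 far smaller than the counting error, with 1153 counts in the Sparcl1-treated library and 871 in the PBS library, or 42.4 against 29.5 CPM (0.52, 0.39 to 0.65). Rpa1, the large subunit of the same complex, had 4242 and 3842 counts (0.26, 0.20 to 0.32), and the difference of Rpa2 from Rpa1 was 0.26 (0.12 to 0.41). Lig1, the ligase that seals the fragments, had 1799 counts after Sparcl1 and 1543 after PBS (0.34, 0.24 to 0.44). Fen1, the flap nuclease that trims them, had 1197 and 1081 (0.26, 0.14 to 0.38). The exons of Fen1 share 84.2% of their bases with genes on the opposite strand, Gm10143 and Tmem258, so its count is uncertain. Fen1 is just past the 1.2-fold limit and Rpa1 just short of it (0.264 and 0.260, limit 0.263). The length and GC trends were 0.071 for Fen1 and -0.019 for Rpa1. With them removed Fen1 fell short of the limit and Rpa1 was past it, and 3 of these genes were past it either way.

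**Figure D3:**
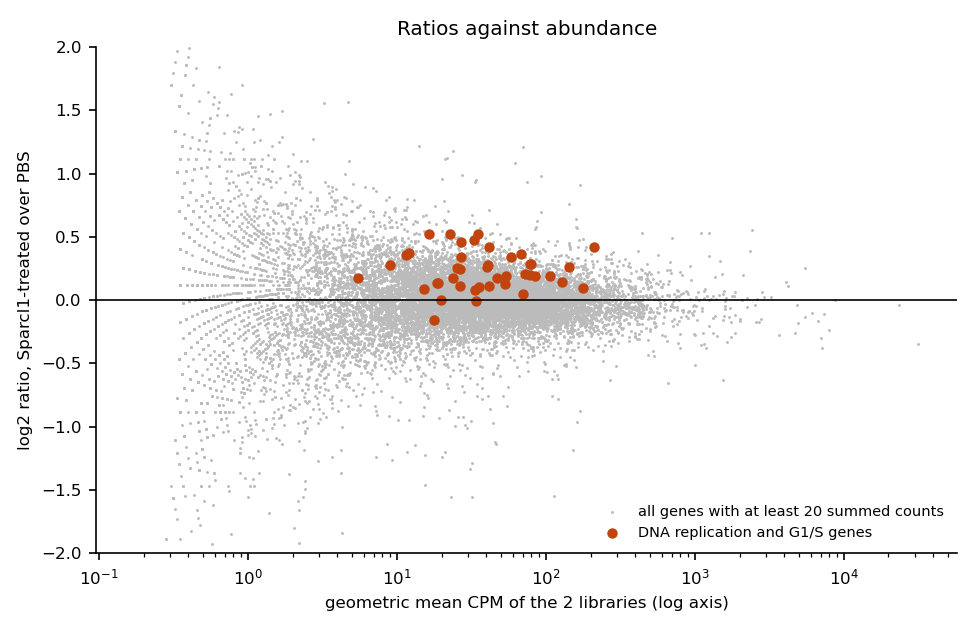
Log2 ratio of each gene, Sparcl1-treated over PBS, against its mean CPM on a log axis, for all genes with at least 20 summed counts in grey and the 42 replication genes in colour. The coloured points lie between -0.16 and 0.52, nearly all above 0 and inside the cloud of other genes of the same abundance, and 41 genes lie beyond the limits of the vertical axis.

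The nucleotide supply genes had a median log2 ratio of 0.35, with 3 of 4 higher past 1.2-fold, against 8.34% of all genes. Rrm2, the small subunit of ribonucleotide reductase whose level follows S phase, had the most counts of any member, with 6615 after Sparcl1 and 5361 after PBS, or 243 against 182 CPM (0.42, 0.37 to 0.47). Rrm1, the large subunit, had 4984 and 5049 counts, or 183 against 171 CPM (0.098, 0.042 to 0.16). The count of Rrm2 over that of Rrm1 was 1.33 in the Sparcl1-treated library and 1.06 in the PBS library, a difference of 0.32 (0.24 to 0.40). Rrm1 is the member most affected by the length and GC trends, and it stood at 0.23 with them removed. Tyms, which makes thymidylate, had 863 counts after Sparcl1 and 680 after PBS (0.46, 0.31 to 0.61), and Tk1, which salvages thymidine, had 1234 and 1101 (0.28, 0.16 to 0.40). Tyms and Pcna each have annotated pseudogenes named after them (Tyms-ps, and Pcna-ps1 and Pcna-ps2), and how reads with several matches were counted is not given in the sources used here.

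The regulators of G1/S among the members are the cyclin E genes Ccne1 and Ccne2 and the E2F genes E2f1 and E2f2. With the length and GC trends left in, all 4 had intervals above 0, where 20.1% of all genes did. Ccne1 had 1061 counts in the Sparcl1-treated library and 826 in the PBS library, or 39.0 against 28.0 CPM (log2 0.48, 0.35 to 0.61). Ccne2 had 786 and 719 counts (0.25, 0.098 to 0.39), which is 0.23 below Ccne1 (0.033 to 0.43). The length and GC trends differ between these genes, at 0.056 for Ccne1 and -0.087 for Ccne2. With them removed the difference was smaller, and its interval, so shifted, included 0. Ccne2 was then past 1.2-fold too, which made 3 of the 4 regulators past it in place of 2. The share of all genes higher past it was then 7.22% in place of 8.34%. E2f2 had 374 counts after Sparcl1 and 313 after PBS (0.37, 0.15 to 0.60), and the more abundant E2f1 had 1571 and 1490 (0.19, 0.090 to 0.30). The trend for E2f1 was 0.092, more than the lower end of its interval. With the trends removed, that interval therefore included 0. The interval of E2f1 against E2f2 included 0 (-0.18, -0.43 to 0.064).

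Among the 4 genes that copy chromatin, Uhrf1, which brings the maintenance methyltransferase to new DNA, was the 1 member past 1.2-fold, where 8.34% of all genes were higher. It had 2112 counts after Sparcl1 and 1782 after PBS, or 77.7 against 60.4 CPM (log2 0.36, 0.27 to 0.45). The subunits of chromatin assembly factor 1 differed little between the libraries. Chaf1a had 934 and 956 counts (0.084, -0.048 to 0.22), with 52.5% of its exon bases shared with Ubxn6 on the opposite strand, and Chaf1b had 691 counts after Sparcl1 and 662 after PBS (0.18, 0.023 to 0.33). Slbp, which binds the stem-loop of histone mRNAs, had 1521 and 1511 counts (0.13, 0.023 to 0.23).

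Of 18 pairs of members set against each other in this way, chosen after their values were seen, 8 had a counting interval of the difference that excluded 0. That count leaves the length and GC trends in. With them removed, the intervals of Ccne1 against Ccne2 and of Mcm5 against Mcm6 included 0. Members with E2F letters in the promoter had a median log2 ratio of 0.29 (13 genes, -0.0098 to 0.52), and members whose promoters lack them had 0.21 (21 genes, -0.16 to 0.52), so their ranges overlap almost wholly. The letters stood in 8 of the 16 genes past 1.2-fold (50.0%) and in 5 of the 18 not past it (27.8%), and no test of this was made.

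**Figure D4:**
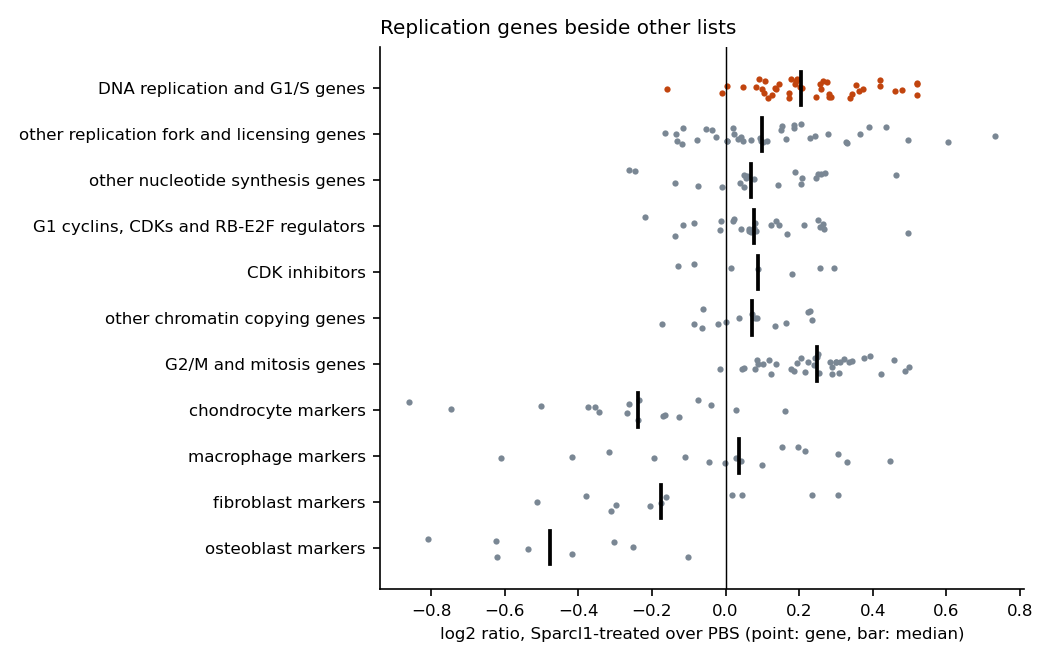
Log2 ratio, Sparcl1-treated over PBS, of each gene with at least 20 summed counts in the replication list, 6 other lists of the cell cycle and nucleotide synthesis, and 4 lists of cell type markers, with the median of each list as a bar. The medians of the replication list and of the mitosis list lie at 0.20 and 0.25, those of the other cell cycle lists between 0.068 and 0.099, and those of the chondrocyte, fibroblast and osteoblast markers below 0.

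Other genes of the replication fork and of licensing, none of them among the 42, also had more ratios above 1 than below it, with a smaller median. Of 38 such genes with enough reads, 9 were higher and none lower past 1.2-fold, 29 ratios lay above 1, and the median log2 ratio was 0.099. Among all genes 8.34% were higher and 7.66% lower by that rule, and 49.6% of ratios lay above 1. Orc1, the cycle-regulated subunit of the origin recognition complex, had 193 counts after Sparcl1 and 126 after PBS (0.73, 0.40 to 1.07), and Rnaseh2c, a subunit of ribonuclease H2, had 617 and 440 (0.60, 0.43 to 0.78). Top1, the topoisomerase that relieves supercoils, had 2120 counts after Sparcl1 and 2575 after PBS (-0.16, -0.25 to -0.080), and Orc4 had 860 and 1024 (-0.13). Top2a, with the most counts of that list, had 5496 and 5039 counts (0.24, 0.19 to 0.30). The table lists Pold4, Skp2 and Kif11 at 0 in both libraries, and no ratio is given for them. Whether those zeros reflect the cells or the making of the table could not be told, so they are not read as absence.

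For nucleotide synthesis beyond the 4 members, 20 genes gave a median log2 ratio of 0.068. Past 1.2-fold, 2 were higher, a share close to the 8.34% of all genes, and none was lower, against 7.66%. Mthfd1 of the folate pathway was among the higher genes, with 1726 counts after Sparcl1 and 1552 after PBS (0.27, 0.17 to 0.37). Rrm2b, the p53-induced form of the reductase small subunit, had 582 counts after Sparcl1 and 749 after PBS (-0.25, -0.41 to -0.089), and Samhd1, which degrades nucleotides, had 5382 and 6416 (-0.14). Paics, an enzyme of purine synthesis and the gene with the most counts there, was at 0.049.

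Over 25 genes of G1 cyclins, their kinases and the regulators of RB and E2F, the median log2 ratio was 0.076. Past 1.2-fold, 2 were higher and none lower, where 8.34% of all genes were higher and 7.66% lower. The share that was higher was thus close to that of all genes. Ccnd1, cyclin D1, had 27736 counts after Sparcl1 and 24973 after PBS (0.27, 0.24 to 0.29), while Ccnd2, with the most counts of the list, had 25368 and 29822 (-0.12, -0.14 to -0.092). E2f8, a repressor of the E2F family, was at 0.27, E2f3 at -0.22 and Rb1, the retinoblastoma protein, at -0.14. Among 7 inhibitors of cyclin-dependent kinases the median was 0.088, with Cdkn2c at 0.29 as the 1 gene past 1.2-fold, Cdkn2a at 0.26, the abundant Cdkn1a at 0.088, Cdkn1b at -0.087 and Cdkn1c at -0.13. Other genes of chromatin copying had a median of 0.072 over 15 genes with none past 1.2-fold in either direction. Nasp and Mms22l were highest there, at 0.24 and 0.23, and Asf1a and Rbbp7 lowest, at -0.17 and -0.085.

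Genes of G2 and mitosis gave values close to those of the 42, with 16 of 37 higher and none lower past 1.2-fold, 36 ratios above 1 and a median log2 ratio of 0.25. Of all genes, 8.34% were higher and 7.66% lower past 1.2-fold, and 49.6% had a ratio above 1. Cenpa, the centromeric histone, had 834 counts after Sparcl1 and 640 after PBS (0.50, 0.35 to 0.65), and the mitotic kinase gene Aurka had 685 and 530 (0.49). Mki67, the proliferation marker and the gene with the most counts of that list, had 4448 counts after Sparcl1 and 4876 after PBS (-0.015, -0.074 to 0.044), and Bub1 was at 0.044.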

How the data were processed

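RNA was sequenced from primary mouse chondrocytes in 2 libraries, 1 per group, made with a NEBNext Ultra kit per the labels' protocols. The authors deposited a table of counts, with a gene symbol per line and a column of unscaled read numbers for each library. HTSeq, STAR, FastQC and Trimmomatic, and genome build mm10, are named per the submitters' processing notes. Versions, annotation and strand setting are not given in the sources used here. In 26 entries the symbol reads as a date, and none is a member.

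Counts were scaled with TMM factors, 1.01 after Sparcl1 and 0.988 after PBS, from edgeR 4.0.16 in R 4.3.3. Log2 ratios carry exact Clopper-Pearson intervals from scipy 1.17.1, which cover counting error only, since amplified reads are not independent molecules. Over the 42 members, the interval reached 0.052 to 0.33 to either side of its centre. A gene needed 20 summed counts, and a 0 entered as 3 counts. Positions, exon lengths and overlaps come from GENCODE M21 (GRCm38, matched for 99.6% of symbols), and promoters from RefSeq. The steps were tested on simulated counts. The members, the lists and the size rules were chosen with earlier results of these data known. All 42 members are named. Of each other list, the 2 highest and 2 lowest ratios among genes with at least 100 summed counts and the most abundant gene are named. For marker lists, counts, sums and the most abundant gene are given, with a few genes added after their values were seen. For 1 gene named by this rule no result is reported here.

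Alternatives were total counts, DESeq2 1.42.0 and upper-quartile factors, count filters, other folds, a prior count, list means, removal of length and GC trends, and leaving out predicted names or members with shared exons.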

Additional observations from a re-analysis of the deposited data

How the results depend on the processing

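The count of 17 members higher past 1.2-fold was 28 of 42 at a fold of 1.1, where 16.1% of all genes were higher, and 0 at a fold of 1.5, where 2.32% were. Under total counts as library sizes, which shift the median of all genes from -0.0019 to 0.033, it was 20, with DESeq2 or upper-quartile factors 16, and with length and GC trends removed 15. No setting put a member lower past 1.2-fold. The median log2 ratio ran from 0.20 to 0.24 across scalings and was 0.22 with the trends removed, and the mean was 0.23. Ratios above 1 numbered 40 or 41 wherever all 42 genes entered. Total counts, like removal of the trends, put Pola1 above 0. Leaving out the 10 members with over 10% of exon bases shared with another gene, or with a named pseudogene, was chosen after seeing the data, as was the count with trends removed, and left 13 of 32 higher and a median of 0.20. No paired analysis was possible because each group has 1 library, and for the same reason no library could be left out. Depth limits single genes more than the list: at 310 summed counts, Gins1 had an interval 0.33 wide to either side.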
